A study of Mus musculus with 33 samples.

Results

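The small RNA comparison set 682 miRNA entries of mouse esophageal basal cells that had lost Nudt21 against the same entries in control cells. All listed entries were members and none was selected by its value; 6 of the 33 samples of the series were small RNA libraries. Nudt21 encodes CFIm25, a subunit of a cleavage factor that acts in the choice of poly(A) sites. Both groups were esophageal basal cells kept in culture, with the genotype Nudt21 fl/fl and R26CreER. R26CreER is a Cre recombinase fused to an estrogen receptor and made from the Rosa26 locus, which 4-hydroxytamoxifen switches on. KO cells received this compound (4OHT) at 0.05 µM and were taken at day 4, in 3 libraries. Control cells, in 3 libraries labelled day 0, received ethanol (ETOH) and were not exposed to it, so that exposure to 4OHT and loss of Nudt21 cannot be told apart. The small RNA labels do not say for how long ethanol was given; those of the mRNA libraries used for host genes, labelled Nudt21 floxed and Nudt21 KO, give 4 days of ethanol for day 0 and 4 days of 4OHT for day 4. The labels give no strain, age or number of animals, and do not say that replicates were separate cultures.

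A miRNA is cut from a hairpin, first in the nucleus by Drosha and then in the cytoplasm by Dicer, which leaves a duplex of a 5p and a 3p strand. Argonaute keeps a strand of that duplex as guide and the other is usually degraded, so that the arms of a hairpin are often present at very different levels. The guide finds its target mRNAs mainly through its seed, bases 2 to 8. In stratified epithelia miR-205 is abundant in basal cells, and miR-203 is known in mouse skin as a miRNA of differentiating layers that represses p63.

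The sequences on which the results turn are printed from RefSeq (GRCm38.p6), which held a mature sequence for 573 of the 682 entries. Capitals mark the seed. The first set shows entries among the 10 largest rises that the authors' deposited table called at a level of 50 or more. miR-203-3p and miR-203b-5p come from opposite strands of the same site on chromosome 12 (miR-203-3p at chr12:112130927-112130948, plus strand; miR-203b-5p at chr12:112130927-112130946, minus strand) and are complementary over 20 bases. The seeds of miR-7a-5p and miR-7b-5p are the same.
miR-203-3p: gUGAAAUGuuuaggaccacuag
miR-203b-5p: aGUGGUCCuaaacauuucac
miR-7a-5p: uGGAAGACuagugauuuuguugu
miR-7b-5p: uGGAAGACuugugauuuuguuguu
miR-129-5p: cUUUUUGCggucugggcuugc

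The second set shows strands that fell beside the other strand of the same hairpin or its relatives. miR-205-3p lies at chr1:193507467-193507488, minus strand, next to miR-205-5p at chr1:193507503-193507524, minus strand. The sequences of let-7a-1-3p and let-7c-2-3p are identical, and they share a seed with let-7b-3p, let-7f-1-3p and miR-98-3p, while the 5p strands carry the known let-7 seed. miR-200a-5p and miR-200b-5p also share a seed.
miR-205-5p: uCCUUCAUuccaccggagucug
miR-205-3p: gAUUUCAGuggagugaagcuca
let-7a-5p: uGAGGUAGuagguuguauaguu
let-7a-1-3p: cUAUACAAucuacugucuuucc
let-7c-2-3p: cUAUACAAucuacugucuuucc
let-7b-3p: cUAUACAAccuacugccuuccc
let-7f-1-3p: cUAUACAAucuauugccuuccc
miR-98-3p: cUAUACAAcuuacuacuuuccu
miR-200a-5p: cAUCUUACcggacagugcugga
miR-200b-5p: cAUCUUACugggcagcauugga
miR-141-5p: cAUCUUCCagugcaguguugga
miR-27a-5p: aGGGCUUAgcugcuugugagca
miR-27b-5p: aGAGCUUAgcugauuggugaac
miR-148a-3p: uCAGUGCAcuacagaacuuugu
miR-148a-5p: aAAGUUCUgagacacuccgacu

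The third set shows members of the miR-17/92 cluster on chromosome 14, because the entries with the miR-19 seed differed in their values from the other members.
miR-17-5p: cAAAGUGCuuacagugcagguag
miR-20a-5p: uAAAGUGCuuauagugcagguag
miR-19a-3p: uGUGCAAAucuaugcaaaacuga
miR-19b-3p: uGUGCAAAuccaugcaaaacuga
miR-92a-3p: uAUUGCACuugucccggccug

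The deposited small RNA table gives 3 columns per group, and the 3 columns of a group were identical in all 682 entries. Each entry therefore has a single level per group and no spread of its own; no test was run on these levels, and tests quoted for miRNAs are those of the authors' deposited table. Levels are given in the deposited unit, which is headed CPM although the entries sum to 978191 in control and 1024079 in KO. The labels give about 10 M reads per small RNA library, and the levels used here carry no read count per entry. The log2 change is that of KO over control after adding 0.5 to both levels. In the 175 entries that reached a level of 50 in the higher group, its median was 0.05. Changes below are relative to the deposited scale: when both columns were brought to the same total without the 10 most abundant entries, log2 changes shifted by -0.19 at the median and that of the 175 entries was -0.14. An approximate error of each change was taken from the deposited F as the size of the deposited log2 change divided by the square root of F. Its median over the 175 entries was 0.195. For most entries the deposited F, and so this error and the FDR, rests on a spread shared over all entries. These values then do not measure the spread of an entry's own libraries alone.

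Nudt21 itself fell in the mRNA libraries, where its level was 12.2, 14.2 and 12.2 in the control libraries and 2.70, 2.44 and 3.95 in the KO libraries (log2 difference -1.94 ± 0.28 (SE), limma adjusted p = 3.42e-06). The 6 levels did not overlap between the groups. Whether the Nudt21 reads fall in the deleted part was not tested, and the small RNA libraries carry no such check.

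The most abundant miRNAs had small changes. The 10 entries with the highest control levels held 76.6% of the control total and 74.4% of the KO total, and none was called in the authors' deposited table. Their log2 changes lay between -0.25 and 0.25. miR-148a-3p stood first in control at 154386 and was at 129891 in KO, whereas let-7f-5p, second in control at 139948, was first in KO at 166431. Their log2 changes were -0.25 and 0.25, with approximate errors of 0.127 and 0.126. let-7i-5p was at 133230.3 in control and 129467 in KO, and miR-27b-3p at 117189 in control and 115856 in KO. The other 6 of these 10 were miR-182-5p, miR-21a-5p, let-7g-5p, let-7c-5p, miR-183-5p and let-7a-5p.

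Of the 682 entries, the authors' deposited table called 18 higher in KO (2.64%) and 28 lower (4.11%), 6.74% in all. At a level of 50 or more, 17 of 175 entries were at least 2-fold higher (9.71%) and 12 were at least 2-fold lower (6.86%). With the scaling that leaves out the 10 most abundant entries the balance turned, with 11 entries at least 2-fold higher and 17 at least 2-fold lower. On the deposited scale, all 12 of the falls past 2-fold were called in the authors' deposited table, against 10 of the 17 rises. Calls were spread unevenly over levels: of the 65 entries at 1000 or more the authors' deposited table called 4 higher and 2 lower, of the 110 between 50 and 1000 it called 10 higher and 15 lower, of the 99 between 10 and 50 it called 4 and 10, and of the 408 below 10 it called 1, a fall. The smallest called change in the authors' deposited table was 0.817 in size on the log2 scale, and a further 12 entries with an FDR under 0.05 had smaller changes and were not called.

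**Figure D1:**
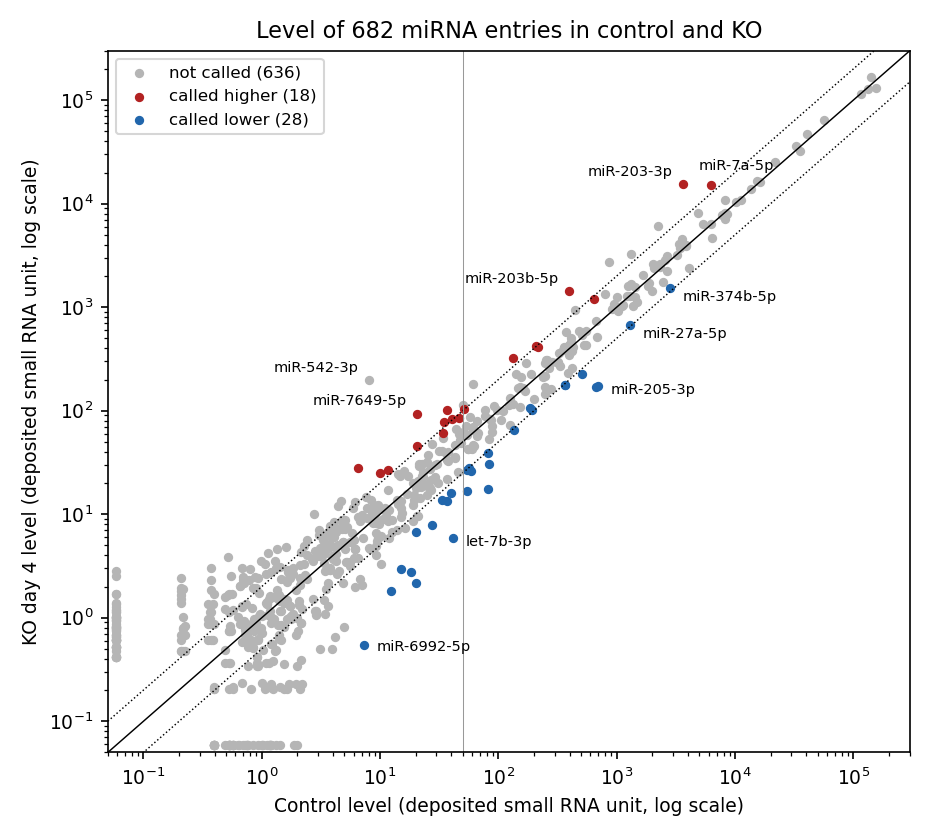
Level of each miRNA entry in control (x axis) and KO day 4 (y axis), both on log scales in the deposited unit; colours give the authors' call, the solid line equal levels, dotted lines 2-fold differences and the grey vertical line a control level of 50. miR-203-3p and miR-7a-5p lie above the upper dotted line among the abundant entries, and the called falls lie lower on the x axis than the most abundant entries.

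miR-203-3p showed the largest called rise among the abundant entries. Its level was 3626 in control and 15329 in KO (log2 change 2.08, FDR 7.92e-36 in the authors' deposited table), so that it went from 0.371% to 1.497% of the listed total. Its antisense neighbour miR-203b-5p was at 395 in control and 1426 in KO (log2 change 1.85, FDR 1.21e-21 in the authors' deposited table). The level of miR-203b-5p was 10.9% of that of miR-203-3p in control and 9.30% in KO. Both rose. Whether the authors' counting used the strand is not given in the sources used here. The passenger strands miR-203-5p and miR-203b-3p were at or below 2.56 in both groups. In these bulk libraries more or fewer cells of a type, such as differentiating cells, and more or less of a miRNA per cell cannot be told apart.

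The miR-7 seed family, which in human cells is known to repress the EGF receptor, rose as a pair. miR-7a-5p was at 6289 in control and 15132 in KO (log2 change 1.27, FDR 4.16e-15 in the authors' deposited table). miR-7b-5p was at 36.7 in control and 102 in KO (log2 change 1.47, FDR 3.19e-07 in the authors' deposited table). With that, miR-7a-5p in KO was nearly as abundant as miR-203-3p, although it was the higher of the pair in control. The other strand of the hairpin on chromosome 13, miR-7a-1-3p, was at 62.2 in control and 45.6 in KO (log2 change -0.44, FDR 0.446 in the authors' deposited table) and was not called.

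miR-129-5p was at 134 in control and 321 in KO (log2 change 1.26, FDR 6.48e-08 in the authors' deposited table). Its antisense entry miR-129b-3p, which shares 20 bases of the site, was at 11.7 in control and 26.9 in KO (log2 change 1.16, FDR 0.0149 in the authors' deposited table). Both were called higher. The antisense entry was at 8.75% of the level of miR-129-5p in control and 8.37% in KO. The remaining 5 of the 10 largest called rises at a level of 50 or more were of low abundance in control, apart from miR-320-3p. miR-7649-5p was at 20.50 in control and 93.5 in KO (log2 change 2.16), miR-7688-5p at 34.9 in control and 77.2 in KO (log2 change 1.13) and miR-3968 at 50.8 in control and 105 in KO (log2 change 1.04). miR-497b was at 40.3 in control and 83.1 in KO (log2 change 1.03), while miR-140-3p, which has the same seed, was at 145 in control and 166 in KO (log2 change 0.19) and was not called in the authors' deposited table. miR-320-3p, known for a hairpin that skips Drosha, was at 208 in control and 419 in KO (log2 change 1.01). The other 4 called rises at a level of 50 or more in the authors' deposited table were miR-674-3p, miR-1839-5p, miR-101a-3p and miR-330-5p, with log2 changes from 0.82 to 0.92.

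Among the called falls past 4-fold, miR-205-3p was the most abundant entry. It was at 699 in control and 174 in KO (log2 change -2.001, FDR 5.31e-22 in the authors' deposited table). Its guide strand miR-205-5p, a defining miRNA of basal stratified epithelium, was at 8584 in control and 7896 in KO (log2 change -0.12, FDR 0.714 in the authors' deposited table). The ratio of miR-205-5p to miR-205-3p thus went from 12.3 to 45.3 as the 3p strand fell and the 5p strand was not called. miR-6539 fell by a like amount, from 673 to 171 (log2 change -1.97, FDR 1.02e-20 in the authors' deposited table).

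miR-365-2-5p had the largest called fall at a level of 50 or more and was at 82.3 in control and 17.7 in KO (log2 change -2.19, FDR 1.29e-12 in the authors' deposited table). miR-365-1-5p, with the same seed and from another hairpin, was at 418 in control and 258 in KO (log2 change -0.70, FDR 0.00465 in the authors' deposited table) and was not called. The shared 3p strand miR-365-3p was at 168 in control and 156 in KO (log2 change -0.11). The common 3p strand had the smallest change of these strands. Of the other called falls among the 10 largest, miR-6399 was at 54.0 in control and 16.6 in KO (log2 change -1.67), miR-504-5p at 84.1 in control and 30.4 in KO (log2 change -1.45) and miR-5099 at 58.3 in control and 26.1 in KO (log2 change -1.14). miR-125b-1-3p was at 506 in control and 226 in KO (log2 change -1.16, FDR 1.32e-07 in the authors' deposited table), and its guide strand miR-125b-5p at 1442 in control and 1257 in KO (log2 change -0.20). miR-374b-5p was the most abundant called fall in the authors' deposited table, at 2806 in control and 1529.9 in KO (log2 change -0.87, FDR 5.52e-06 in the authors' deposited table).

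The arms of hairpins differed in the direction of the calls. For 403 entries an entry of the other arm was listed; the arm with the lower control level is called the minor arm here (206 entries) and the other the major arm (197 entries). Of the minor arms, 17 were called lower and 1 higher in the authors' deposited table, whereas 4 major arms were called lower and 10 higher. As shares, 8.25% of minor arms and 2.03% of major arms were called lower, beside 4.11% of all entries. At a level of 50 or more, 9 of 35 minor arms were called lower and none higher, against 3 lower and 8 higher of 105 major arms, by the authors' deposited table. Of all 175 entries at that level it called 17 lower (9.71%) and 14 higher (8%). The median log2 change was -0.19 in those minor arms and 0.11 in those major arms; with the scaling that leaves out the 10 most abundant entries both medians were below 0. Over the 81 pairs whose minor arm reached a level of 10, the minor arm had the lower log2 change in 61, and the median difference was -0.48. Not one of the 17 major partners of the minor arms that fell was called in the authors' deposited table. Some partners, such as let-7f-5p, miR-92a-3p and miR-365-3p, come from hairpins on separate chromosomes. The level of such a partner is not that of a single hairpin. Their log2 changes ran from -0.77 (miR-135b-5p) to 0.74 (miR-200b-3p). By name, 15 of 313 5p strands and 10 of 301 3p strands were called lower in the authors' deposited table, both near the 4.11% of all entries.

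**Figure D2:**
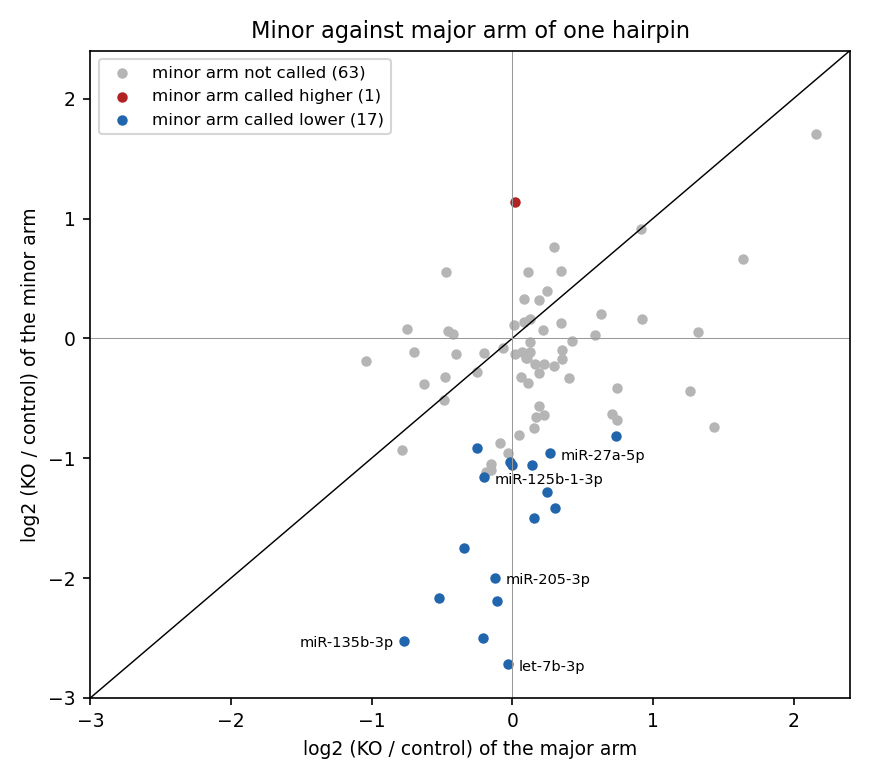
log2 change (KO over control) of the minor arm (y axis) against that of the major arm of the same miRNA (x axis), for the 81 pairs whose minor arm reached a level of 10; colours give the authors' call of the minor arm and the diagonal marks equal change. The 17 called falls lie below the diagonal, with major arms between -0.77 and 0.74.

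The let-7 family was split between its arms. let-7 miRNAs are known repressors of growth genes, and the 9 entries with the let-7 seed at a level of 50 or more had a median log2 change of 0.05, from -0.15 (let-7g-5p) to 0.35 (miR-98-5p). None of the 10 listed entries with that seed was called in the authors' deposited table, beside 6.74% of all entries. Of the 5 entries with the seed of the let-7 3p strands, 4 were called lower there, beside 4.11% of all entries. These 4 include a pair with identical values, given below. Of all minor arms at a level of 10 or more, 21.0% were called lower. let-7b-3p was at 41.6 in control and 5.89 in KO (log2 change -2.72, FDR 3.63e-12 in the authors' deposited table), while let-7b-5p was at 8280.1 in control and 8103 in KO (log2 change -0.03). let-7f-1-3p was at 39.5 in control and 15.9 in KO (log2 change -1.28, FDR 0.00113 in the authors' deposited table), while let-7f-5p was at 139948 in control and 166431 in KO (log2 change 0.25). The entries let-7a-1-3p and let-7c-2-3p have identical sequences and identical values, 369 in control and 177 in KO (log2 change -1.06, FDR 4.40e-06 in the authors' deposited table), and count as a single measurement. The fifth, miR-98-3p, was at 7.70 in control and 11.6 in KO (log2 change 0.56) and was not called in the authors' deposited table. Other 3p strands of the family, which have other seeds, were let-7d-3p at 419 in control and 374 in KO (log2 change -0.16) and let-7e-3p at 45.2 in control and 25.6 in KO (log2 change -0.81); neither was called in the authors' deposited table.

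The miR-200 family, known for holding back Zeb1 and Zeb2 in epithelial cells, had calls in its 5p strands and none in its 3p strands in the authors' deposited table. miR-200c-3p, its most abundant member, was at 10244 in control and 10355 in KO (log2 change 0.02). miR-200b-3p, next in level among the 3p strands, was at 4839 in control and 8073 in KO (log2 change 0.74, FDR 0.401 in the authors' deposited table), with an approximate error of 0.341, and was not called. miR-200a-3p was at 1213 in control and 1280.4 in KO (log2 change 0.08) and miR-429-3p at 1107 in control and 1030.5 in KO (log2 change -0.10). Among the 5p strands, miR-200b-5p was at 187 in control and 106 in KO (log2 change -0.81, FDR 0.00266 in the authors' deposited table) and miR-141-5p at 135 in control and 65.3 in KO (log2 change -1.04, FDR 1.40e-04 in the authors' deposited table); both were called lower. miR-200a-5p was at 4052 in control and 2415 in KO (log2 change -0.75, FDR 1.02e-04 in the authors' deposited table), under the FDR of 0.05 but not called. The levels of miR-200a-5p and miR-141-5p were above those of their 3p strands in control, so that both count as major arms. miR-141-3p was at 132 in control and 116 in KO (log2 change -0.19).

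In the miR-23, miR-27 and miR-24 clusters, 3 of 11 entries were called lower in the authors' deposited table, beside 4.11% of all entries. Of the 11 entries, 9 reached a level of 50, where 9.71% of all entries were called lower. All 3 were minor 5p strands, and of all minor arms at a level of 10 or more 21.0% were called lower. miR-27a-5p was the most abundant minor arm that was called lower, at 1301 in control and 669 in KO (log2 change -0.96, FDR 2.50e-06 in the authors' deposited table). The minor arm miR-24-2-5p, at 1839 in control and 1589 in KO (log2 change -0.21), was not called. miR-27b-5p was at 81.0 in control and 39.4 in KO (log2 change -1.03, FDR 0.00119 in the authors' deposited table) and miR-23b-5p at 36.6 in control and 13.4 in KO (log2 change -1.41, FDR 4.69e-04 in the authors' deposited table). No 3p strand of these clusters was called there, with miR-27a-3p at 3372 in control and 4067 in KO (log2 change 0.27), miR-27b-3p at a log2 change of -0.02 and miR-23b-3p at 479 in control and 591 in KO (log2 change 0.30). miR-24-3p, encoded in both clusters, was at 5400.5 in control and 6300.2 in KO (log2 change 0.22). Its antisense entry miR-3074-5p was at 2028 in control and 2590.0 in KO (log2 change 0.35). In the miR-148 family the guide miR-148a-3p, the most abundant entry in control, had a log2 change of -0.25, and miR-148a-5p was at 194 in control and 103 in KO (log2 change -0.91, FDR 4.97e-04 in the authors' deposited table).

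Further minor arms called lower in the authors' deposited table were of low level. miR-135b-3p was at 18.3 in control and 2.76 in KO (log2 change -2.52), miR-25-5p at 12.5 in control and 1.80 in KO (log2 change -2.50) and miR-92a-1-5p at 15.0 in control and 2.95 in KO (log2 change -2.17). miR-130a-5p was at 27.5 in control and 7.81 in KO (log2 change -1.75) and miR-30c-1-3p at 20.1 in control and 6.75 in KO (log2 change -1.503). These 5 were below a level of 50 in both groups and are named because of their arm, after their values were seen. The single minor arm called higher in the authors' deposited table was miR-708-5p, at 20.7 in control and 46.0 in KO (log2 change 1.14); ranked by its KO level it is the major arm.

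Falls were not limited to minor arms. The 4 major arms called lower in the authors' deposited table were miR-141-5p, miR-187-3p, miR-301a-5p and miR-455-5p. miR-455-5p was at 20.2 in control and 2.17 in KO (log2 change -2.96, FDR 2.42e-07 in the authors' deposited table), miR-187-3p at 56.3 in control and 28.2 in KO (log2 change -0.99, FDR 0.00674 in the authors' deposited table) and miR-301a-5p at 54.7 in control and 27.01 in KO (log2 change -1.004, FDR 0.00633 in the authors' deposited table). The highest control level among them was that of miR-141-5p. That level was close to the one of miR-141-3p (135 against 132 in control). Ranked by its KO level miR-141-5p is the minor arm (65.3 against 116). A further 7 called falls in the authors' deposited table had no listed entry of the other arm, among them miR-374b-5p, miR-504-5p and miR-6539.

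The first base of a miRNA bears on how Argonaute holds it, with U favoured. Of the 573 entries with a sequence, 42.6% began with U. Among the 25 called lower in the authors' deposited table that have a sequence, 3 began with U, and among the 16 called higher 7 did. Minor arms began with U in 20.5% and major arms in 52.7%. The median GC content was 50.0% in the entries called lower, 47.8% in those called higher and 50.0% in all 573.

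miRNA clusters are hairpins that lie within 10 kb of each other on the same strand and are often made from a shared primary transcript. In 15 clusters at least 3 entries reached a level of 50, and their medians of log2 change ran from -0.46 to 0.41, beside 0.05 over all 175 entries. The miR-17/92 cluster (GRCm38.p6 chr14:115043671-115044506), a target of Myc known for promoting proliferation, had the lowest. miR-20a-5p was at 6451 in control and 4685 in KO (log2 change -0.46, FDR 0.0326 in the authors' deposited table) and miR-17-5p at 1985 in control and 1446 in KO (log2 change -0.46, FDR 0.0706 in the authors' deposited table). miR-18a-5p was at 153 in control and 109.8 in KO (log2 change -0.48) and miR-92a-3p at 246 in control and 171 in KO (log2 change -0.52). Those 4 had log2 changes between -0.46 and -0.52, while miR-19a-3p was at 60.5 in control and 179.8 in KO (log2 change 1.56) and miR-19b-3p at 446 in control and 934 in KO (log2 change 1.06). The approximate errors were 0.834 and 0.652 for the miR-19 entries, against 0.168 for miR-17-5p, and none of these 6 was called in the authors' deposited table. Among them, miR-19b-3p and miR-92a-3p also come from hairpins on chromosome X, so their levels are not those of this cluster alone. Of the 10 listed entries of the cluster, 1 was called lower in the authors' deposited table, beside 4.11% of all entries. This was the low miR-92a-1-5p, at 15.0 in control and 2.95 in KO (log2 change -2.17). In the related cluster on chromosome 5, miR-93-5p was at 1471 in control and 1122 in KO (log2 change -0.39), miR-106b-3p at 1383 in control and 1031 in KO (log2 change -0.42) and miR-25-3p at 8165 in control and 7077 in KO (log2 change -0.21). Of the 6 listed entries of that cluster, 1 was called lower in the authors' deposited table. This was the low miR-25-5p, at 12.5 in control and 1.80 in KO (log2 change -2.50). The 4 entries of the miR-17 seed at a level of 50 or more had a median of -0.42. miR-106b-5p, which shares that seed, was at 98.0 in control and 101 in KO (log2 change 0.04).

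**Figure D3:**
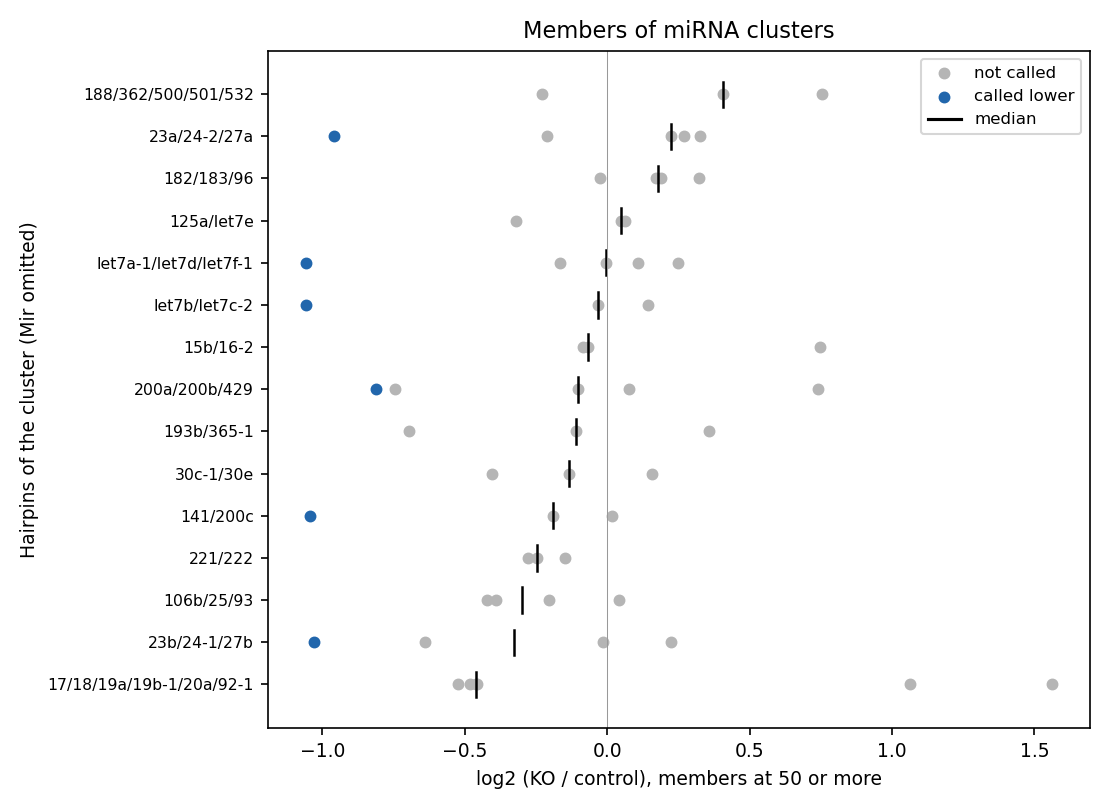
log2 change (KO over control, x axis) of the members at a level of 50 or more in each of 15 clusters (rows), with the median as a black bar; blue points were called lower by the authors. The miR-17/92 row holds 4 points near -0.5 and the miR-19 points above 1; in 6 rows a blue point lies left of the other members.

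No member of 3 further clusters was called in the authors' deposited table, beside 6.74% of all entries. The miR-183, miR-96 and miR-182 cluster, which summed to 81837 in control, had a median of 0.18; miR-182-5p was at 56578 in control and 63659 in KO (log2 change 0.17) and miR-183-5p at 21968 in control and 25049.9 in KO (log2 change 0.19). miR-221-3p and miR-222-3p, known to repress the cell cycle inhibitor p27, had log2 changes of -0.25 and -0.15. In the X-linked cluster of miR-188, miR-362, miR-500, miR-501 and miR-532, miR-501-3p was at 171 in control and 289 in KO (log2 change 0.75, FDR 0.00334 in the authors' deposited table) and was not called. The p53-linked miR-34c-5p was at 15249 in control and 16665 in KO (log2 change 0.13) and miR-34a-5p at 417 in control and 397 in KO (log2 change -0.07). None of the 7 listed entries of miR-34 and miR-449 was called in the authors' deposited table, beside 6.74% of all entries. With so few entries, a count of 0 is near that share.

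In other families the share of called entries was near that of all entries or 0. Of the 12 listed entries of the miR-30 family, 1 was called in the authors' deposited table, the low miR-30c-1-3p, beside 6.74% of all entries. The minor arm miR-30c-2-3p was at 388 in control and 231 in KO (log2 change -0.74, FDR 0.00243 in the authors' deposited table) and was not called. The guide miR-30c-5p was at 2551 in control and 2846 in KO (log2 change 0.16). Of the 12 entries of miR-10, miR-99, miR-100 and miR-125, 1 was called in the authors' deposited table, the fall of miR-125b-1-3p. miR-99b-5p was its most abundant member at 13558 in control and 13762 in KO (log2 change 0.02), and miR-100-5p, with the same seed, was at 2459 in control and 1739 in KO (log2 change -0.50, FDR 0.0314 in the authors' deposited table) and was not called. The abundant miR-26a-5p was at 6297 in control and 6406 in KO (log2 change 0.02) and miR-29a-3p, a repressor of collagen genes, at 1032 in control and 928 in KO (log2 change -0.15). No entry of the miR-26, miR-29 or miR-181 families was called in the authors' deposited table, and the miR-181 entries summed to 39.9 in control and 37.7 in KO. No entry with the miR-15 and miR-16 seed was called in the authors' deposited table either, and miR-15b-5p was at 428 in control and 408 in KO (log2 change -0.07).

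A group of 11 entries at a level of 50 or more had wide errors. The deposited F and p-value of an entry imply the degrees of freedom behind its test. In 634 entries these were 2728, which is 4 times the 682 entries, so their tests rest on a spread shared over all entries. In 12 entries they were fewer than 20, and 11 of those were at a level of 50 or more. These 11 were picked after their values were seen. Their approximate errors ran from 0.336 to 1.31, and those of the other 164 entries at a level of 50 or more from 0.126 to 0.308. miR-542-3p was at 8.12 in control and 199 in KO (log2 change 4.53, FDR 0.207 in the authors' deposited table). miR-185-5p was at 867 in control and 2706 in KO (log2 change 1.64, FDR 0.470 in the authors' deposited table) and miR-30d-5p at 2227 in control and 6023 in KO (log2 change 1.44, FDR 0.488 in the authors' deposited table). miR-31-5p, an abundant miRNA of squamous epithelia, was at 1317 in control and 3287 in KO (log2 change 1.32, FDR 0.521 in the authors' deposited table). These 4, with miR-19a-3p, miR-19b-3p and miR-146a-5p, were the 7 entries past 2-fold higher that the authors' deposited table did not call. Of the 11 entries 10 were higher in KO; the other, miR-30e-5p, was at 319 in control and 291 in KO (log2 change -0.13). The other 3 were miR-16-5p with a log2 change of 0.75, miR-30a-5p with 0.42 and miR-200b-3p with 0.74. Which libraries spread cannot be read from levels that are the same in all columns of a group.

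**Figure D4:**
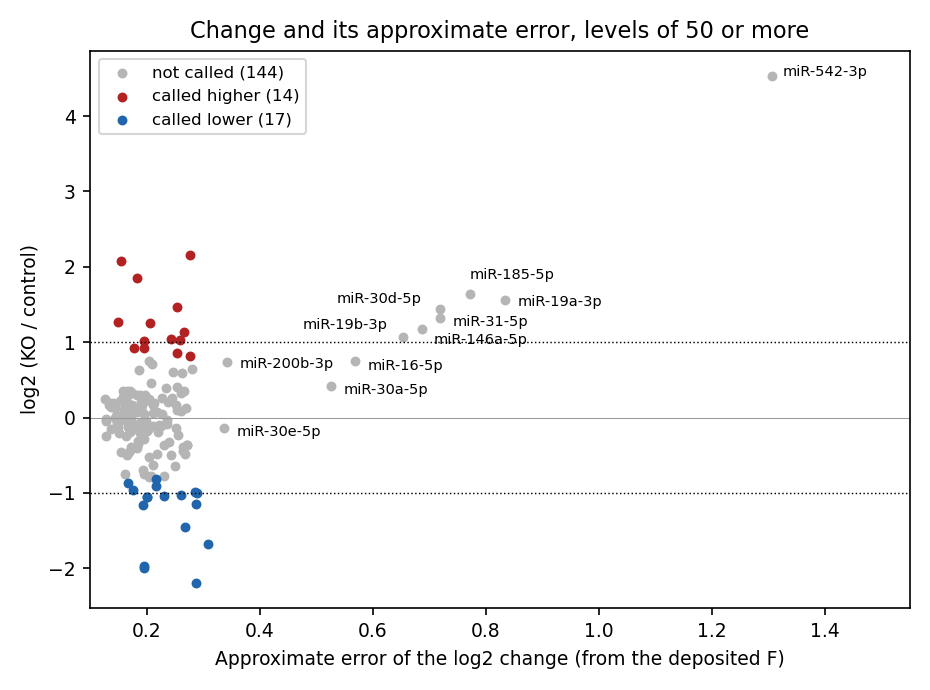
log2 change (KO over control, y axis) against the approximate error taken from the deposited F (x axis) for the 175 entries at a level of 50 or more; colours give the authors' call and dotted lines 2-fold. The 11 named entries have errors above 0.33, 7 of them lie above the upper dotted line, and none of them was called.

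Markers of other cell types were low. Summed over the listed members, muscle miRNAs were at 29.2 in control and 38.1 in KO, fibroblast and mesenchyme miRNAs at 29.9 and 36.0, and leukocyte miRNAs at 4.42 and 1.28. Erythroid miRNAs summed to 7.60 and 5.78, neural to 6.42 and 1.76, pancreatic to 21.6 and 14.4, and the hepatocyte miRNA miR-122 to 1.13 and 1.07. Endothelial miRNAs were highest among them, at 278 and 233. The members miR-133a, miR-133b, miR-144, miR-451a, miR-142a, miR-223, miR-214, miR-216a and miR-217 were not analysed here. No listed member of these lists was called in the authors' deposited table, beside 6.74% of all entries. Of the 408 entries below a level of 10 in both groups, that table called 1. For members that low, the absence of calls therefore says little about other cell types. miR-203 and miR-205 together summed to 12909.5 in control and 23401 in KO. The miR-200 family, a marker of epithelium in general, summed to 21911 and 23443.

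Many miRNAs lie inside longer genes, and for these the mRNA libraries of the same design offer a measurement with replicates. Of 407 hairpins with a position, 243 lay within a gene on the same strand, and 55 host genes with a listed miRNA at a level of 50 or more were tested. Their mRNA was compared between 3 KO day 4 and 3 day 0 libraries with limma over all 12344 genes. Of the 55 hosts, 11 rose and 17 fell, 50.9% in all, near the 46% of all genes that passed the same test (23.7% up and 22.3% down). The median log2 difference was -0.08 in the hosts and 0.03 over all genes.

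Mir17hg, the host transcript of the miR-17/92 cluster, had mRNA levels of 29.2, 25.9 and 29.5 in the control libraries and 7.69, 6.43 and 5.78 in the KO libraries. Mir17hg fell (log2 difference -2.01 ± 0.19 (SE), limma adjusted p = 1.27e-09), and its groups did not overlap. The RefSeq interval of Mir17hg in this build holds only the hairpin of miR-92a. miR-92a-3p, which also comes from a hairpin on chromosome X, had a log2 change of -0.52. The other strand, miR-92a-1-5p, is listed from this hairpin only. It was called lower in the authors' deposited table at a low level, 15.0 in control and 2.95 in KO (log2 change -2.17). Mcm7, a subunit of the replicative helicase and host of miR-106b, miR-93 and miR-25, had 183, 161 and 179.9 in the control libraries and 126, 127 and 124.6 in the KO libraries. It fell too (log2 difference -0.47 ± 0.08 (SE), limma adjusted p = 1.69e-05), beside log2 changes of -0.39 in miR-93-5p and -0.21 in miR-25-3p. 3110039I08Rik, RefSeq's Mir100hg and host of miR-100 and miR-125b-1, had 9.94, 10.6 and 13.2 in the control libraries and 7.25, 8.08 and 6.92 in the KO libraries. It fell (log2 difference -0.56 ± 0.20 (SE), limma adjusted p = 0.0216), beside miR-125b-1-3p, which was called lower in the authors' deposited table. The guide miR-125b-5p (log2 change -0.20) and miR-100-5p were lower but not called there. The call of the host was lost without day 0 replicate 3 and without KO day 4 replicate 1 or 3 (adjusted p from 0.0134 to 0.104 over all alternatives).

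Other hosts changed in another direction than a miRNA they hold. Hnrnpk, an RNA-binding protein gene that holds a miR-7a hairpin (chr13:58391132-58403343), had 657, 688 and 641 in the control libraries and 511, 494 and 484 in the KO libraries. Hnrnpk fell (log2 difference -0.41 ± 0.07 (SE), limma adjusted p = 1.74e-05), while miR-7a-5p rose to 2.41 times its control level. miR-7a-5p also comes from a hairpin on chromosome 7. miR-7a-1-3p, listed from the chromosome 13 hairpin only, was lower, as its host was (log2 change -0.44). It was not called in the authors' deposited table. 4631405K08Rik, which RefSeq names Mir205hg, had 3.19, 3.59 and 2.47 in the control libraries and 9.24, 8.85 and 6.35 in the KO libraries. It rose (log2 difference 1.27 ± 0.17 (SE), limma adjusted p = 8.81e-07), with miR-205-5p at a log2 change of -0.12 and miR-205-3p at -2.001. Ska2, a gene of the spindle and kinetochore complex, had 24.8, 23.3 and 22.4 in the control libraries and 69.3, 73.0 and 69.2 in the KO libraries. Ska2 rose (log2 difference 1.56 ± 0.09 (SE), limma adjusted p = 2.17e-14), and its miR-301a-5p was called lower in the authors' deposited table, with a log2 change of -1.004. The other strand, miR-301a-3p, was at 1.68 in control and 2.91 in KO (log2 change 0.65) and was not called there.

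**Figure D5:**
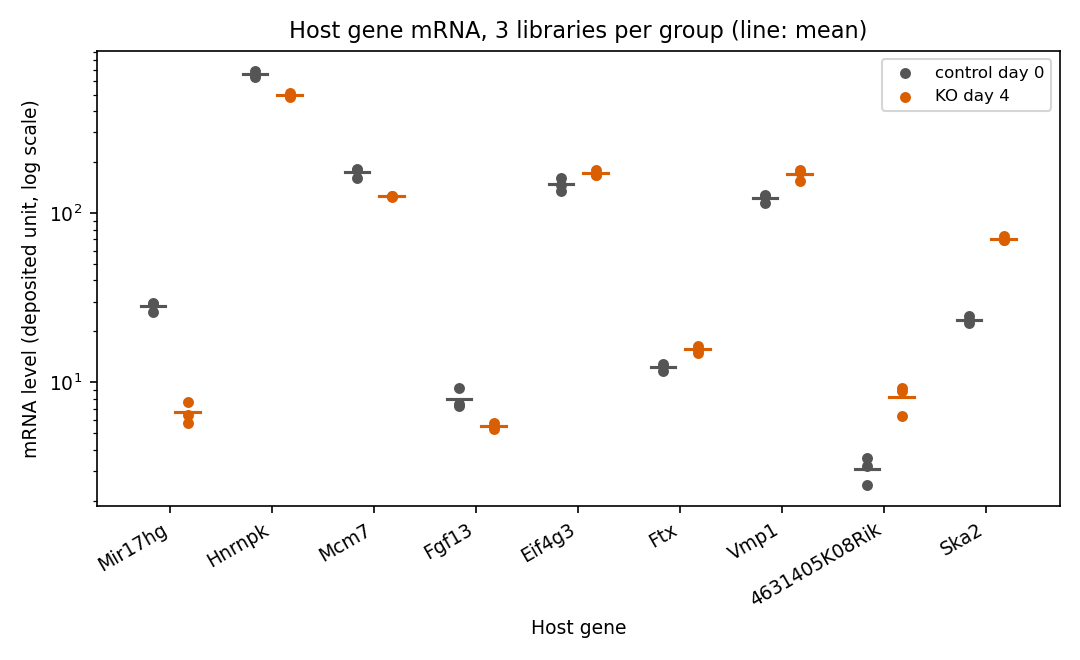
mRNA level (y axis, log scale, deposited unit) of 9 host genes in 3 control day 0 libraries (grey) and 3 KO day 4 libraries (orange), with the mean as a line. Mir17hg is lower in KO and Ska2 and 4631405K08Rik are higher, without overlap between the groups.

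Fgf13, host of miR-504, had 7.25, 7.43 and 9.22 in the control libraries and 5.48, 5.73 and 5.32 in the KO libraries. It fell (log2 difference -0.49 ± 0.17 (SE), limma adjusted p = 0.0169), in the direction of miR-504-5p. Ftx, a noncoding RNA of the X inactivation centre and host of miR-374b, had 12.5, 12.8 and 11.6 in the control libraries and 16.4, 15.6 and 15.0 in the KO libraries, and rose (log2 difference 0.34 ± 0.13 (SE), limma adjusted p = 0.0412) while miR-374b-5p was lower. The call of Ftx was lost without any single one of the 6 libraries and when the 6 libraries were fitted alone, with adjusted p between 0.0281 and 0.110 over all alternatives. Eif4g3, host of miR-6399, had 136, 147 and 161 in the control libraries and 169, 181 and 168 in the KO libraries (log2 difference 0.22 ± 0.09 (SE), limma adjusted p = 0.0432), and its call was lost in 5 of the leave-one-out fits, all but the one without day 0 replicate 3 (adjusted p from 0.0151 to 0.200 over all alternatives). The call of Fgf13 was lost without day 0 replicate 3 (adjusted p = 0.0868, the highest over all alternatives, of which the lowest was 0.0132).

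Hosts of abundant miRNAs with small changes moved as well. Vmp1, an autophagy gene whose interval holds miR-21a, had 128, 115 and 126 in the control libraries and 175, 154 and 180.2 in the KO libraries and rose (log2 difference 0.46 ± 0.08 (SE), limma adjusted p = 3.16e-05); miR-21a-5p had a log2 change of 0.19. Wdr82, the host of let-7g, had 132, 124.7 and 141.6 in the control libraries and 103, 101 and 103 in the KO libraries and fell (log2 difference -0.37 ± 0.07 (SE), limma adjusted p = 6.36e-05); let-7g-5p had a log2 change of -0.15. 2010111I01Rik, RefSeq's Aopep and host of the miR-23b, miR-27b and miR-24-1 hairpins, had 51.3, 55.9 and 54.7 in the control libraries and 38.3, 46.9 and 36.3 in the KO libraries. It fell (log2 difference -0.42 ± 0.10 (SE), limma adjusted p = 9.49e-04), beside the log2 change of -0.02 in miR-27b-3p. The 5p strands of these hairpins were lower, with log2 changes of -1.41 (miR-23b-5p), -1.03 (miR-27b-5p) and -0.64 (miR-24-1-5p). The first and second of these were called lower in the authors' deposited table. Clcn5, Dleu2, Eml2, Gm13648, Gm32817, Huwe1, Nfyc and Spaca6, hosts of other named miRNAs, did not pass the test, with log2 differences between -0.23 (Dleu2) and 0.23 (Gm13648).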

How the data were processed

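Per the labels, RNA was isolated with miRNeasy and small RNA libraries were made with the NEBNext small RNA kit. The submitters' processing notes name STAR, Bowtie, Subread, featureCounts, SAMtools and edgeR with mm10, without versions or roles. The deposited small RNA levels are a signal per entry that equals the authors' fitted group level: the log2 of the ratio of the columns matches the deposited log2 change. The authors' F score, p-value and FDR were used as deposited; the deposited FDR equals the Benjamini-Hochberg value over the 682 p-values. No read counts could be recovered from these columns, so no counting interval is given.

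The deposited mRNA signal was recovered as whole reads within 0.1 (100% of values, 16.3 to 91.4 M per library). Depth differed between the compared groups. Control day 0 libraries held 17.4, 19.0 and 16.3 M reads, and KO day 4 libraries 50.9, 57.9 and 16.9 M. The main test was limma 3.58.1 (trend, robust, under R 4.3.3) on log2(value + 0.5), over genes at 1 or more in 3 libraries. All 18 mRNA libraries were in a single fit, two-sided, with Benjamini-Hochberg adjustment over all genes. The code was tried on simulated data with few changed genes and independent libraries. In the real data 46% of genes passed, so that trial does not show how the test behaves here. edgeR 4.0.16 and DESeq2 1.42.0 on recovered reads were alternatives. p-values measure the spread between libraries, which may be technical. Same-numbered libraries of both groups deviated together (r = 0.365, 0.709 and 0.27 over genes). Differently numbered libraries were not compared, and the labels give no pairs, so whether the numbers pair the libraries was not tested. The main fit did not use the numbers, and a fit with the replicate as a block was an alternative. Hosts needed a strand in RefSeq; 41 overlaps without a strand were not used.

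Members, lists and tests were chosen with earlier results of these data known. Named entries were the 10 highest in control, the 10 largest called rises and falls at 50 or more, their other arms, list, family and cluster members, and host genes.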

Additional observations from a re-analysis of the deposited data

How the results depend on the processing

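Counts past 2-fold moved most with the level required. With a floor of 10 there were 27 falls; with a floor of 1000 there were 6 rises and 0 falls; with no filter there were 98 rises and 81 falls. Scaling both columns to the same total without the 10 most abundant entries lowered the median log2 change by 0.19 and gave 11 rises and 17 falls, and at 1.5-fold there were 29 rises and 25 falls. Pseudocounts of 5 and 0.01, equal totals, centring on the median and the authors' deposited log2 change gave counts within 1.5 times of the first. The median of each list, family, cluster and arm class moved by 0.1 or more in 90 of 392 values, 44 of them under the scaling without the 10 most abundant entries; of 52 single entries followed, no called one changed direction in the 6 scalings and pseudocounts tried. Alternatives for the arms were chosen after seeing the data: ranking arms by KO or by mean level gave 18 minor arms called lower, counting shared values once 16, and a floor of 50 gave 9. The cause of these shifts was not tested. Leaving out a small RNA library was not possible from group levels, and the shares were not recomputed on reads. Host genes called lay between 8 and 9 up and 14 and 18 down without single libraries. The replicate block gave 11 up and 17 down and changed no call among the named hosts. The log2 differences for host mRNA of Clcn5 (from -0.0075 to 0.16) and host mRNA of Gm32817 (from -0.51 to 0.31), not called, changed sign when single libraries were left out.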

Other observations

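Low entries carried large changes and few calls. Of the 507 entries below a level of 50 in both groups, 251 had a deposited log2 change of 1 or more in size, and 15 of those were called in the authors' deposited table. The lowest level, 0.0585, was the same in both columns and was held by 54 control and 46 KO entries. In all, 84 entries shared both levels with another entry. Antisense partners did not always move together: miR-219a-1-3p was called lower in the authors' deposited table, at 33.2 in control and 13.7 in KO (log2 change -1.25), while miR-219c-5p, which shares 20 bases of the site, was at 4.23 in control and 4.80 in KO (log2 change 0.16). miR-598-3p was at 6.52 in control and 28.3 in KO (log2 change 2.04, FDR 7.01e-06 in the authors' deposited table) and miR-450b-5p at 10.1 in control and 25.0 in KO (log2 change 1.27, FDR 0.00926 in the authors' deposited table); both were called higher. These entries were chosen after their values were seen.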
